A study of Arabidopsis thaliana with 4 samples.

Results

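Isocitrate lyase (ICL, AT3G21720) was higher in floral buds of the Arabidopsis thaliana cdm1 mutant than in wild type buds, by a log2 difference of 0.91 between the means of 2 arrays each. ICL belongs to a set of 5 glyoxylate cycle and linked genes that were chosen by locus, with ICL's difference on these arrays already known: ICL, malate synthase (MLS, AT5G03860), the peroxisomal citrate synthase genes CSY2 (AT3G58750) and CSY3 (AT2G42790), and phosphoenolpyruvate (PEP) carboxykinase (PCK1, AT4G37870). A gene counted as measured where GEO's platform annotation assigned a probe set to it alone. By that rule ICL was measured, by 1 probe set, among 13286 genes so measured on the array. MLS, CSY2, CSY3 and PCK1 had no probe set assigned to them, alone or together with other genes, and are not analysed here. The annotation left out 8730 of the 22746 probe sets, so this does not show that the array lacks these genes. The same holds for all other genes counted as not measured. All values for the set therefore come from 1 gene, and a difference in ICL says nothing about the other 4.

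The data are 4 Affymetrix arrays of total RNA from unopened flower buds of Col-0 plants at day 24 after germination: 2 of the cdm1 mutant and 2 of wild type plants. CDM1 encodes a CCCH zinc finger protein needed for normal callose around the developing microspores. The labels name cdm1 only as a mutant and give no allele, and they mention moderate drought for some plants without assigning it to any array. CDM1 itself has no assigned probe set, so the mutated gene gives no check of the labels. The titles give replicate numbers and the series text calls the replicates biological, with no statement of how many plants each held.

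The glyoxylate cycle lets plants build sugars from acetyl-CoA, which peroxisomal beta-oxidation releases from fatty acids. Citrate synthase and malate synthase each take up an acetyl unit, and isocitrate lyase splits isocitrate into succinate and glyoxylate, so that carbon bypasses the decarboxylation steps of the mitochondrial tricarboxylic acid (TCA) cycle. PEP carboxykinase then turns oxaloacetate into PEP for gluconeogenesis. In Arabidopsis ICL is best known from oil mobilisation in germinating seedlings, and in plants the enzyme is also known from pollen and from senescing or sugar-starved tissue.

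ICL read 6.34 and 6.51 in the cdm1 buds and 5.62 and 5.40 in the wild type buds, on the log2 scale of the deposited values. Both mutant arrays lay above both wild type arrays, as was the case for 23.7% of all probe sets. The gap between the lowest cdm1 and the highest wild type array was 0.72, and that between the highest cdm1 and the lowest wild type array was 1.11. These gaps are ratios of 1.65 and 2.15. Replicates lay closer together than the groups did: replicate 2 minus replicate 1 was 0.17 in cdm1 and -0.22 in wild type. The means were 6.42 ± 0.12 in cdm1 and 5.51 ± 0.16 in wild type (SD, n = 2 arrays each), a 1.88-fold higher level in cdm1 with a moderated standard error (SE) of 0.12 on the log2 scale. No test of the wild type level against background was made, and RMA compresses differences of dim probe sets. In bulk buds, more RNA per cell and more cells that hold the transcript cannot be told apart.

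**Figure D1:**
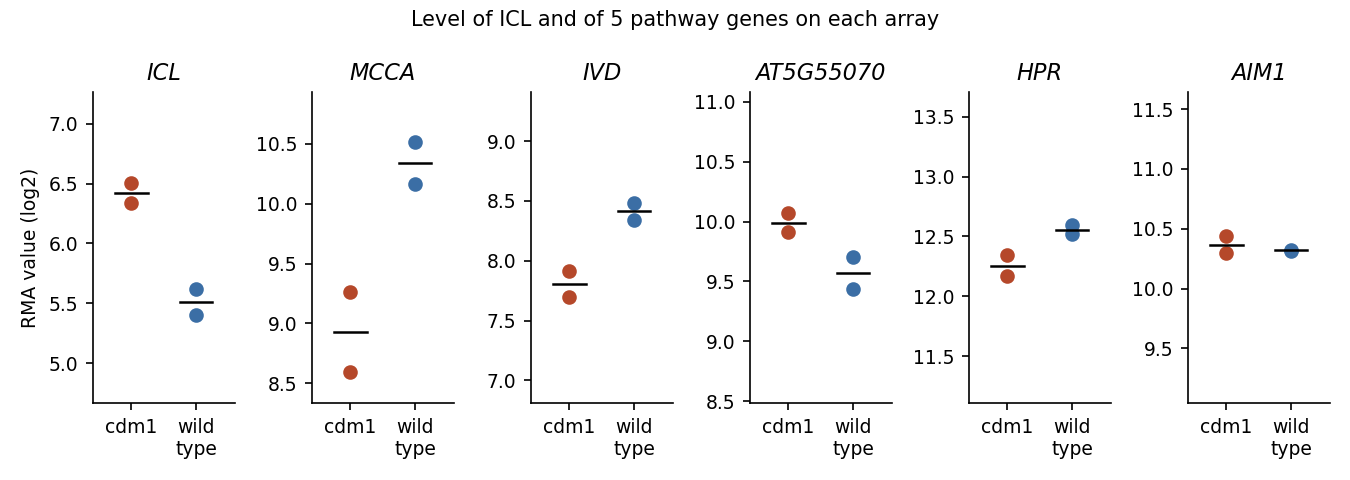
RMA values (log2) of ICL and of 5 pathway genes on each array, with cdm1 left of wild type. Points are arrays, black bars are group means, and each panel spans the same range of log2 units. The 2 cdm1 arrays lie above both wild type arrays for ICL and AT5G55070 and below both for MCCA, IVD and HPR. The groups overlap for AIM1. Over the array, 23.7% of probe sets read higher on both cdm1 arrays and 23.6% lower.

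ICL was among the 137 of 22746 probe sets, or 0.602%, that were called higher in cdm1 by limma at an adjusted p of 0.05. A further 166 probe sets, or 0.73%, were called lower. Because ICL was chosen with this contrast known, its place among the calls is a description and no p-value is given for it. Among the 78 probe sets of 1 gene that were called higher, ICL ranked 44 by size of difference. Over the whole array, 0.62% of probe sets were higher in cdm1 by at least as much as ICL. That share leaves out probe sets that were lower in cdm1 by as much. With wild type replicate 1 left out, the ICL difference was 1.02, and with wild type replicate 2 left out it was 0.80. In both of those fits limma called 0 probe sets on the array, ICL included (1619 and 2133 had an unadjusted p under 0.05).

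**Figure D2:**
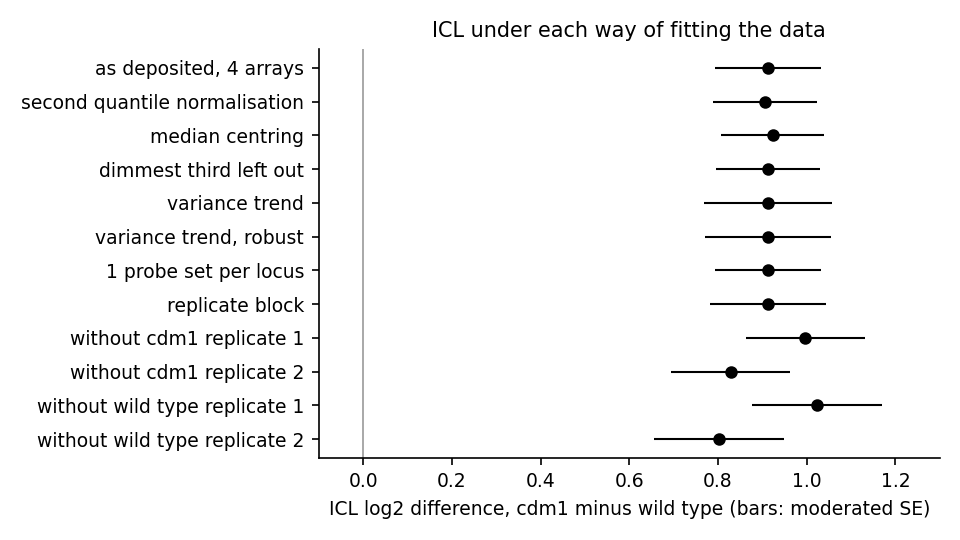
Log2 difference of ICL, cdm1 minus wild type, with the deposited values of all 4 arrays and under each of 11 alternatives. Bars are moderated SEs, and all differences lie between 0.80 and 1.02; these ends are the fits that lack a wild type array.

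The surrounding pathways gave no call. Of 142 genes in 8 lists of pathways around the glyoxylate cycle, 30 were measured. None of these 30 passed limma's test over all probe sets in either direction, where 1.33% of all probe sets passed, and 6 had an unadjusted p under 0.05, as did 15.3% of all probe sets. None of the 11 listed partner enzymes of the cycle, such as the aconitases and the peroxisomal malate dehydrogenases, was measured. The median log2 difference over the 30 genes was 0.049, and over all probe sets it was 0.0036.

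On fatty acid supply to the cycle, 5 genes were measured: 3 of 6 listed for lipid mobilisation and 2 of 25 for beta-oxidation. SDP1 encodes the main triacylglycerol lipase of oil breakdown in seedlings. It read 8.01 and 8.71 in cdm1 buds and 8.85 and 8.67 in wild type buds, so that cdm1 replicate 1 lay apart from the other 3 arrays. SDP1 did not pass with all 4 arrays (log2 difference -0.40, SE 0.23, limma adjusted p = 0.463), and its difference was -0.051 without cdm1 replicate 1. With cdm1 replicate 2 left out it was -0.75 (limma adjusted p = 0.0353), the 1 alternative in which SDP1 passed. SDP1-LIKE, a second lipase gene, was at -0.077 (SE 0.14). AT4G24160, which encodes a lipid acyl hydrolase and acyltransferase related to CGI-58, had the smallest p of the lipid list, at 0.29 (SE 0.10, limma adjusted p = 0.274). Its cdm1 arrays read 8.14 and 8.28 and its wild type arrays 7.98 and 7.87. AIM1, a multifunctional protein of peroxisomal beta-oxidation, read 10.37 ± 0.10 in cdm1 and 10.32 ± 0.0028 in wild type (SD, n = 2 arrays each). Its difference was 0.048 (SE 0.098, limma adjusted p = 0.876). AIM1 turned to -0.024 without cdm1 replicate 1. The dienoyl-CoA reductase gene SDRB was at 0.045 by the brighter of its 2 probe sets. The other probe set of SDRB gave 0.17, and the cdm1 and wild type arrays overlapped in both.

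**Figure D3:**
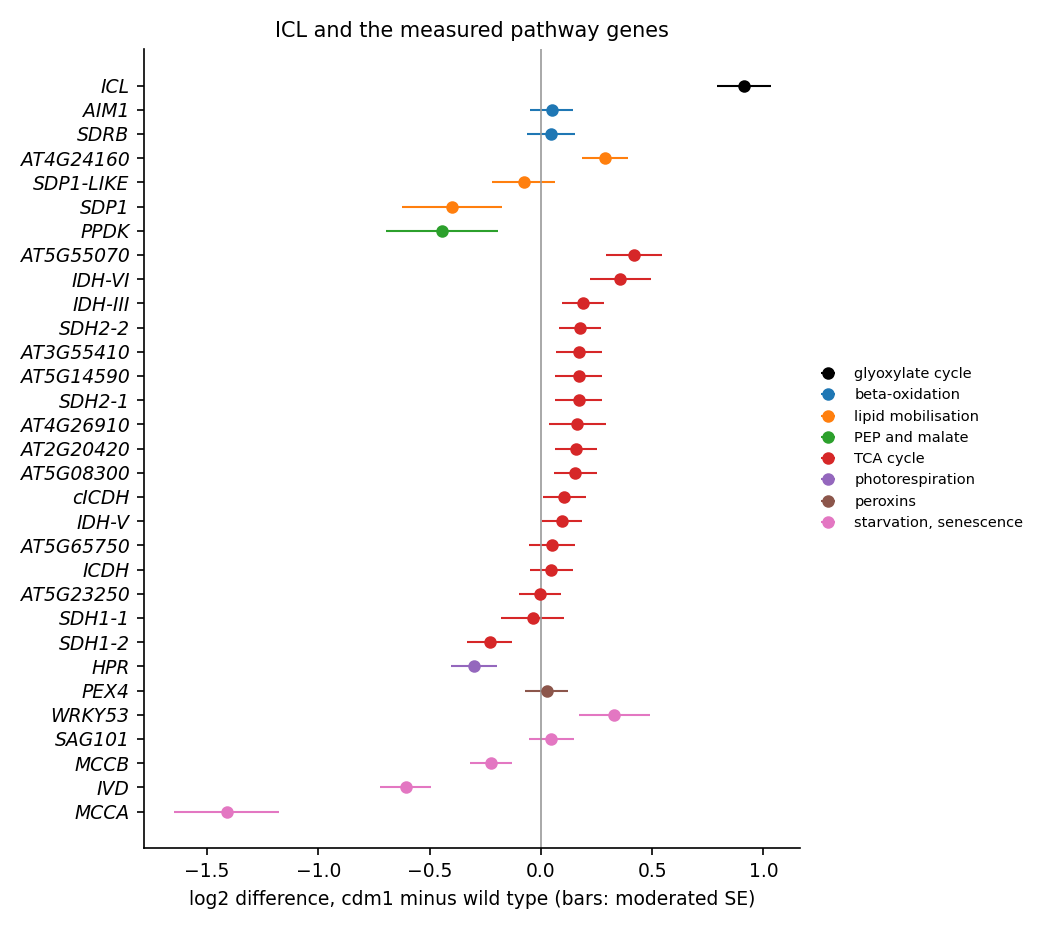
Log2 difference, cdm1 minus wild type, of ICL at the top and of the 30 measured pathway genes, coloured by list, with moderated SEs as bars. ICL stands at 0.91, the other genes reach at most 0.42 upward, and MCCA has the lowest value at -1.41.

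In the mitochondrial TCA cycle and the isocitrate dehydrogenases, 17 of 26 listed genes were measured, and 14 of the 17 had positive differences. None passed the test. The median log2 difference was 0.16, and it was 0.089 without cdm1 replicate 1. Isocitrate is also the substrate of the isocitrate dehydrogenases. Among these, the catalytic subunit gene IDH-VI read 8.61 and 8.28 in cdm1 and 8.16 and 8.02 in wild type (log2 difference 0.36, SE 0.14, limma adjusted p = 0.299). IDH-III was at 0.19, IDH-V at 0.095, the cytosolic enzyme gene cICDH at 0.10 and the peroxisomal enzyme gene ICDH (AT1G54340) at 0.047. Another listed isocitrate dehydrogenase gene, AT5G14590, was at 0.17 (SE 0.11). Succinate dehydrogenase, which oxidises the other product of isocitrate lyase, had 4 measured genes. SDH2-1 and SDH2-2 were at 0.17 and 0.18, SDH1-1 at -0.037 and SDH1-2 at -0.23. The smallest p of the list belonged to AT5G55070, a gene for the E2 subunit of 2-oxoglutarate dehydrogenase, at 0.42 (SE 0.13, limma adjusted p = 0.209), with 10.07 and 9.91 in cdm1 and 9.44 and 9.71 in wild type. The differences of the 17 genes ran from -0.23 to 0.42.

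PPDK, which makes PEP from pyruvate, was the 1 measured gene of 15 in the list of PEP and malate enzymes. It read 5.40 and 4.95 in cdm1 and 5.96 and 5.28 in wild type, and the groups overlapped (log2 difference -0.44, SE 0.25, limma adjusted p = 0.462). The PPDK difference ran from -0.78 to -0.10 with 1 array left out, with both ends in the fits that lack a wild type array. HPR, the peroxisomal hydroxypyruvate reductase of photorespiration, was lower on both cdm1 arrays, at 12.17 and 12.34 against 12.59 and 12.52 in wild type, but did not pass (log2 difference -0.30, SE 0.10, limma adjusted p = 0.260). HPR was the 1 measured gene of 12 in the photorespiration and catalase list. The ubiquitin-conjugating peroxin gene PEX4, the 1 measured of 25 genes in the peroxin list, was at 0.025 (SE 0.096, limma adjusted p = 0.942) and at -0.038 without wild type replicate 1.

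The list of sugar starvation and senescence genes had 5 measured members of 22, none of them called, with a median log2 difference of -0.22. The 2 senescence genes were SAG101 at 0.048 and the transcription factor gene WRKY53 at 0.33 (SE 0.16). The other 3 encode enzymes of mitochondrial leucine breakdown, which ends in acetyl-CoA, and each read lower on both cdm1 arrays than on both wild type arrays. Over the array, 23.6% of probe sets read lower on both cdm1 arrays. MCCA, the biotin-carrying subunit of methylcrotonyl-CoA carboxylase, read 8.59 and 9.26 in cdm1 and 10.52 and 10.16 in wild type. Its log2 difference of -1.41 had an SE of 0.24 and missed the threshold (limma adjusted p = 0.0612). MCCA did pass with a variance trend (adjusted p = 0.0392), with robust estimation of it (0.0494) and without cdm1 replicate 2 (0.00976). The alternatives gave it limma adjusted p-values between 0.00976 and 0.445. IVD, the isovaleryl-CoA dehydrogenase gene, was at -0.61 (SE 0.12, limma adjusted p = 0.0839; 0.0346 without cdm1 replicate 2 and 0.0454 with robust estimation, within a range from 0.0346 to 0.554). MCCB, the second subunit of the carboxylase, was at -0.22 (SE 0.093, limma adjusted p = 0.331). MCCA was named by a rule, and IVD and MCCB were singled out after their values were seen.

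Cell type markers showed 1 called gene, in the tapetum list. Of 69 listed markers of 6 cell types, 15 were measured. SHT, the tapetal spermidine hydroxycinnamoyl transferase, was called higher in cdm1, and the other 14 markers did not pass. The lists were chosen with earlier results of these data known, so their calls are descriptions. Over all probe sets, 0.602% were called higher. SHT read 10.01 and 10.28 in cdm1 and 8.78 and 8.05 in wild type (log2 difference 1.73, SE 0.24, limma adjusted p = 0.0367). That call was lost when wild type replicate 1 was left out (adjusted p = 0.0749) and when wild type replicate 2 was (adjusted p = 0.140), and also with the replicate number as a block (adjusted p = 0.238). All 5 measured tapetum markers, of 22 listed, had positive differences, with a median of 0.94 that was 0.46 without wild type replicate 2. They were SHT, the beta-glucosidase gene ATA27 (0.94, SE 0.18), the lipase gene AT1G75920 (EXL5; 0.99), the transcription factor gene AMS (0.18) and the lipid transfer protein gene A9 (AT5G07230; 0.12). ATA27 missed the threshold with all arrays (limma adjusted p = 0.0905) and passed with robust estimation of a variance trend (0.0396) and without cdm1 replicate 1 (0.0383), within a range from 0.0383 to 0.443. Summed on the linear scale, the 5 tapetum markers read 10721 and 11979 in cdm1 and 8820 and 8445 in wild type. Their lowest value was 5.83, for AT1G75920 on wild type replicate 2. SHT differed in the same direction as ICL, and the part of tapetum RNA in the ICL difference was not tested.

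The 5 measured pollen markers, of 23 listed, had a median log2 difference of 0.18 and summed levels of 104 and 92.7 in cdm1 and 97.6 and 85.7 in wild type, which overlap. The median was 0.10 without cdm1 replicate 1 and 0.27 without cdm1 replicate 2. PLIM2A, an actin-bundling protein gene of pollen, had the smallest p, at -0.49 (SE 0.18, limma adjusted p = 0.271), but -0.24 when wild type replicate 1 was left out and -0.75 when wild type replicate 2 was. Most of the list went the other way: ACT12 was at 0.38, AGL104 at 0.22 and MGH3 at 0.18, with AGL66 at -0.022. None of these pollen markers passed. All pollen marker values lay between 3.51 and 5.12, and no test against background was made at these levels. The meiotic genes SDS (-0.29, SE 0.12, limma adjusted p = 0.312) and SPO11-1 (-0.082), the chlorophyll-binding protein gene LHCB4.2 (0.085, SE 0.097, limma adjusted p = 0.744), the ovule gene INO (0.23, SE 0.12, limma adjusted p = 0.423) and the carpel gene SPT (-0.022) did not pass. With 1 array left out, SDS ran from -0.42 to -0.17, INO from 0.11 to 0.35 and LHCB4.2 from 0.023 to 0.15. No seed storage marker, of 7 listed, was measured.

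**Figure D4:**
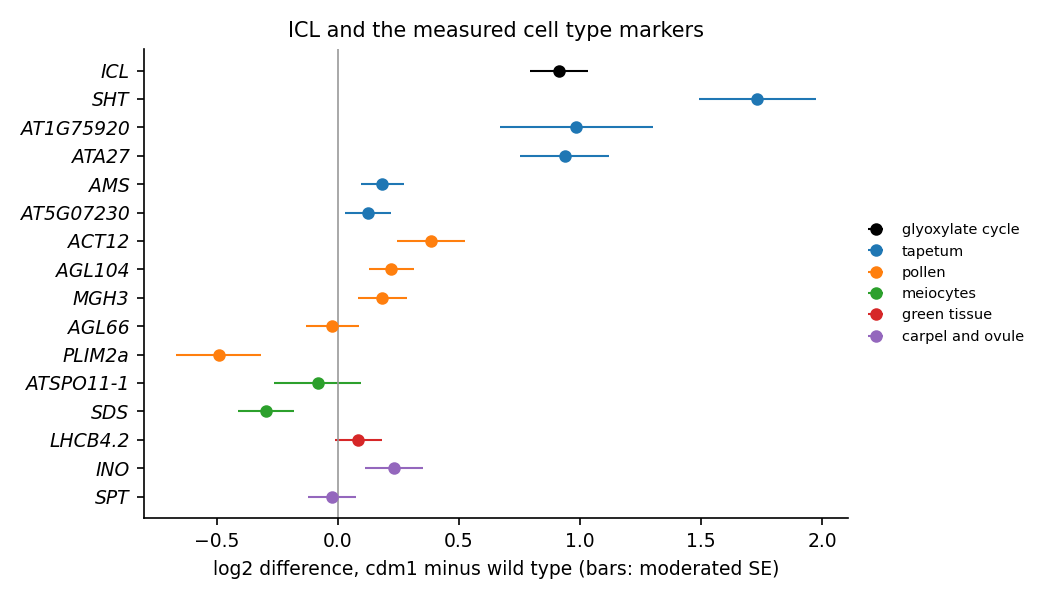
Log2 difference, cdm1 minus wild type, of ICL at the top and of the 15 measured cell type markers, coloured by cell type, with moderated SEs as bars. SHT stands highest at 1.73, and the other tapetum markers lie between 0.12 and 0.99.

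The genes with profiles closest to that of ICL were sought among 13435 other probe sets of 1 gene, by the Euclidean distance between log2 values over the 4 arrays after each gene was centred on its own mean. With 4 arrays in 2 groups such a distance mainly picks genes with a like group difference, so it is a description. The closest was AT5G39910 (distance 0.093), with 5.10 and 5.34 in cdm1 and 4.51 and 4.25 in wild type. AT2G28680, a gene of the cupin family, followed at a distance of 0.10. AT1G59740 (NPF4.3), of the nitrate and peptide transporter family, was at 0.11. UGT79B6 (AT5G54010), the glycosyltransferase that adds the second sugar to flavonols of pollen, was at 0.12 and read 7.37 and 7.43 in cdm1 and 6.49 and 6.37 in wild type. AT1G01640, a gene of the BTB domain family, was also at 0.12. The log2 differences of these 5 genes ran from 0.84 for AT5G39910 to 1.02 for AT1G01640, on either side of the 0.91 of ICL. None of them belongs to the pathway lists. Of the 2 protein-coding genes on each side of ICL in the TAIR10.1 gene order, 1 was measured: SGP2, the second gene on the side of lower coordinates, which was at -0.29 (SE 0.14, limma adjusted p = 0.387).

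**Figure D5:**
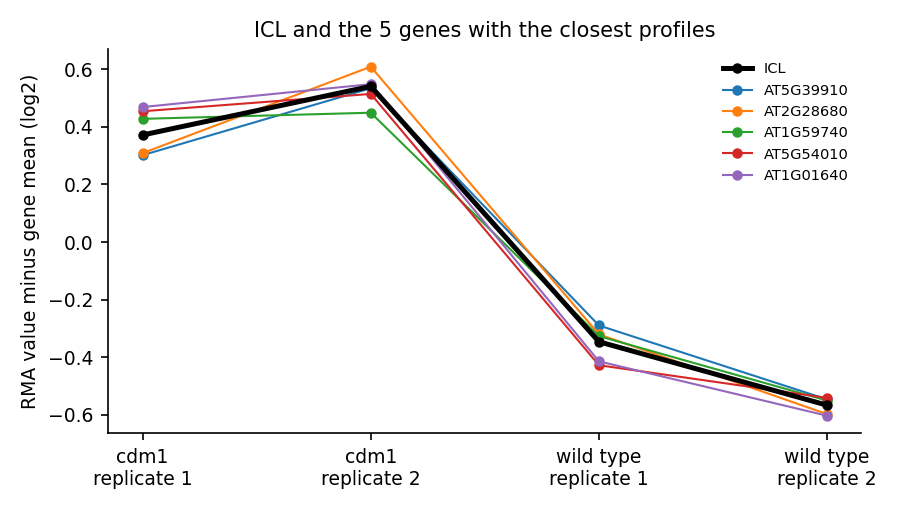
Log2 values of ICL (thick black line) and of the 5 closest genes on each array, each minus the gene's mean over the 4 arrays; lines join arrays for reading only. All 6 genes are above 0 on both cdm1 arrays and below 0 on both wild type arrays.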

How the data were processed

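The authors deposited 1 log2 value per probe set and array for 22746 probe sets. Per the submitters' processing notes, RMA was used, with the affy package of R and no version stated. That the scale is log2 was read from the values, which ran from 2.64 to 14.0 with array medians of 7.21 to 7.24. RMA normalises arrays together and compresses differences of dim probe sets. Neither detection above background nor a hybridisation batch was tested, because only these values were used. Precision is limited by the number of arrays.

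GEO's platform annotation tied 13513 probe sets to 1 gene and 503 to more than 1, while 8730 were not in it. Genes were matched to loci through Entrez identifiers. TAIR10.1 served for names and gene order only. For lists, a locus was represented by its brightest probe set of 1 gene.

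Genotype was the single term of a linear model fitted with limma 3.58.1 in R 4.3.3 to all probe sets and all 4 arrays, with empirical Bayes moderation (2 residual and 4 prior degrees of freedom), two-sided tests and Benjamini-Hochberg adjustment at 0.05. The members and lists were chosen with earlier results of these data known. ICL's difference is therefore given without a p-value, and no list was tested as a set. ATA27, IVD and SDP1 were followed through the alternatives after their values were seen. Besides ICL and its 5 closest profiles, genes were named as up to 3 called members of each list, or the member with the smallest p. Other members of lists, and the neighbours of ICL, were named after their values were seen. The alternatives tried were leaving out each array, the replicate number as a block, a variance trend (also with robust estimation), median centring, quantile normalisation anew, testing 1 probe set per locus, and a filter on the dimmest 33.3% of probe sets. Each p-value sets a difference against a spread estimated from 2 arrays per genotype and moderated by the spread over all probe sets.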

Additional observations from a re-analysis of the deposited data

How the results depend on the processing

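The ICL difference stayed positive and within 1 replicate SD (0.14) of 0.91 in all 11 alternatives, from 0.80 to 1.02 with 1 array left out. ICL was among limma's calls in 8 of them. The exceptions were the replicate block and leaving out either wild type array, where 0 probe sets were called (3110, 1619 and 2133 at an unadjusted p under 0.05). The number of probe sets called, 303 with all arrays, was 465 with the robust variance trend, 201 with 1 probe set per locus (13356 tested) and 0 with the replicate block, and it ran from 0 to 1040 (without cdm1 replicate 2) with 1 array left out. Called members of the pathway and marker lists, 1 with all arrays (SHT), numbered 2 with the variance trend, 4 with the robust trend and 0 with the replicate block (9 at an unadjusted p under 0.05), and from 0 to 4 with 1 array left out. The cause of these shifts was not tested. The replicate block leaves 1 residual degree of freedom and does not move a difference. Deviations of same-numbered arrays correlated at -0.066, so the numbers were not taken to pair the arrays. With 1 array left out, AIM1 ran from -0.024 (without cdm1 replicate 1) to 0.12 and PEX4 from -0.038 (without wild type replicate 1) to 0.089. The median of the starvation and senescence list was -0.61 with the dimmest 33.3% of probe sets (means up to 5.32) left out, when 3 of its 5 members were tested and no pollen marker was.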
